A study of Arabidopsis thaliana with 30 samples.

Results

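This report describes 35 probe sets of an Arabidopsis thaliana array. In total RNA their signal was raised over air after 9 h of low oxygen and not after 2 h. They are 35 of 22746 non-control probe sets, or 0.154%. They were chosen by a rule on the mean of 3 total RNA arrays in each condition, on the deposited log2 scale, where a difference of 1 is a doubling. The rule asks that 9 h hypoxia minus 9 h air be at least 1.5, that 2 h hypoxia minus 2 h air lie between -0.3 and 0.3, that 9 h hypoxia minus 2 h hypoxia be at least 1, and that recovery minus 9 h hypoxia be above -1. The probe table used here pairs 11 of them with 1 gene each and the other 24 with none, so those 24 are called by their probe set ID. One of the 35, 256308_s_at, carries the suffix for probes shared by several transcripts.

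When oxygen falls, plant cells lose respiration as their main source of ATP and turn to glycolysis and fermentation. A set of core hypoxia genes, switched on by ethylene response factors that are stable only when oxygen is low, responds early, while transcripts linked to longer energy shortage, heat and oxidative stress can accumulate later. Translation is restricted at the same time, so that many mRNAs are made or kept but leave the polysomes, the strings of ribosomes on an mRNA being translated, and return to them when air is restored.

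The seedlings were 7 days old and all carried the transgene 35S:His6FLAG-RPL18B in Col-0. It places a tagged ribosomal protein under the 35S promoter, and no line without it is among the 30 arrays. Polysomal RNA is the RNA recovered with tagged ribosomes, and total RNA is that of the whole seedling. The 5 conditions were 2 h of air, 2 h of hypoxia, 9 h of air, 9 h of hypoxia, and 9 h of hypoxia followed by 1 h of recovery in air, each with 3 arrays per RNA pool from 3 replicate experiments. Treatments began when the light period ended, so the air arrays of each duration are the control for the time of night. The recovery arrays, taken 1 h after the 9 h groups, have no air arrays of the same time. Whole seedlings were sampled, and fewer cells expressing a transcript cannot be told apart from less of it in each cell.

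Total RNA array means lay between 5.754 and 5.805. The polysomal groups averaged 5.364 in 2 h air, 4.537 in 2 h hypoxia, 5.358 in 9 h air, 4.342 in 9 h hypoxia and 5.196 after recovery. Each array's mean was therefore subtracted before the polysomal tests, and every polysomal difference below is relative to the average probe set on the same array. On deposited values the median difference over all probe sets was -0.97 in the 9 h comparison, -0.85 in the 2 h comparison and 0.81 in the recovery comparison; after subtraction it was 0.05, -0.02 and -0.04. Replicates of a group differed by a mean of 0.132 to 0.246 (absolute log2 difference over all probe sets).

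A 9 h total RNA difference of at least 1.5 was met by 669 probe sets. Of these, 603 were already above 0.3 at 2 h, 0 were below -0.3 and 66 lay in the window. The condition on 9 h against 2 h hypoxia left 39, and the recovery condition removed 4. The late probe sets are thus 5.232% of the probe sets that met the 9 h threshold. Their 9 h difference had a median of 1.77 and ran from 1.51 to 4.15, with 8 at 2 or more and 2 at 3 or more. The deposited signal of the members ran from 3.496 to 10.278 in 9 h air and from 5.233 to 11.807 after 9 h of hypoxia. These values chose the members and are given without a test.

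**Figure D1:**
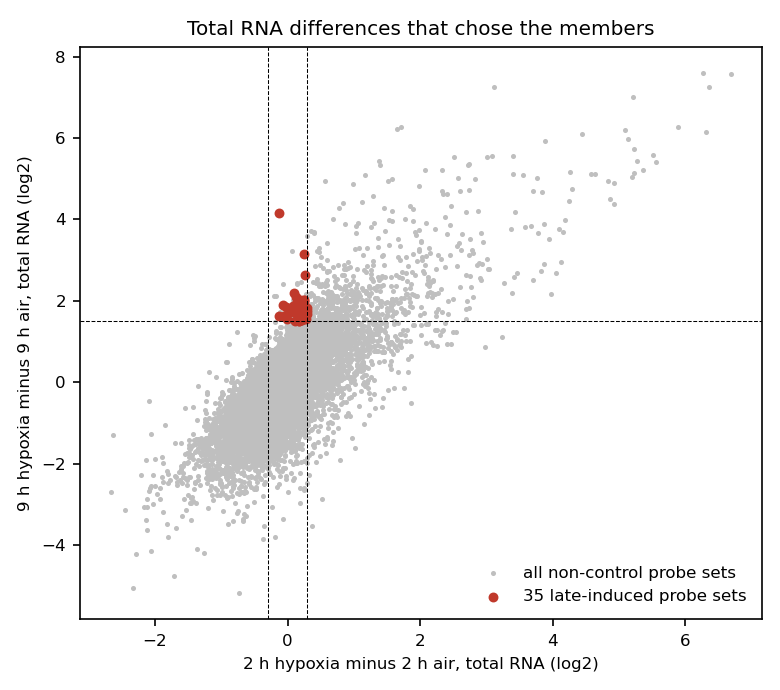
Each point is a probe set, with the 2 h hypoxia minus air difference in total RNA on the x axis and the 9 h difference on the y axis (log2, means of 3 arrays). Dashed lines mark the window of -0.3 to 0.3 and the 9 h threshold of 1.5; the 35 chosen probe sets, in red, lie inside the window and above the threshold, and most probe sets above the threshold lie to the right of the window.

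The name "only at 9 h" holds as the rule defines it, on means of 3 arrays, and was not tested beyond that. As a description, the rule was applied to 2 replicate numbers and the differences were read in the third. The sets so chosen are not the members: 30 of 56, 21 of 26 and 29 of 46 were shared with the 35. Each reading is 1 array minus 1 array, and the share of all probe sets above 0.3 there is not given. These counts therefore cannot tell a 2 h rise from the spread of single arrays. With replicate 1 left out, 56 probe sets were chosen, and their 2 h difference in replicate 1 exceeded 0.3 for 34 of them. The same held for 3 of 26 with replicate 2 left out and for 19 of 46 with replicate 3 left out. In the arrays left out the 9 h difference had medians of 1.81, 1.81 and 1.76 and minima of 0.29, 0.49 and 1.03, and it reached 1.5 for 40 of 56, 17 of 26 and 33 of 46. The full rule was met again by 14, 12 and 15 probe sets. Of the 35 members, 17 were chosen in all 3 rounds, 12 in 2, 5 in 1 and AT1G78280 in 0.

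The members nearest the threshold of 1.5 were AT1G78280 at 1.51, AT4G28140 at 1.51 and AT1G73240 at 1.52. Just outside were AT1G62310 at 1.49, 263433_at at 1.47 and AT3G07150 at 1.47, which met the other conditions.

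Polysomal arrays were not used by the rule, although they come from the same experiments: deviations of total and polysomal arrays with the same condition and number correlated at 0.133 to 0.589 across probe sets (median 0.219, 15 pairs). In polysomal RNA, 33 of the 35 were higher after 9 h of hypoxia than in 9 h air (limma, Benjamini-Hochberg adjusted p under 0.05, 3 arrays a group), where 22.6% of all probe sets were called higher. The members' median difference was 1.702, from 0.14 to 5.11, against 0.05 over all probe sets, and 21 of 35 reached 1.5, as did 3.79% of all probe sets. All 3 hypoxia arrays lay above all 3 air arrays for 33 members, as they did for 26.2% of all probe sets. On deposited values, without subtracting array means, 24 of 35 were called higher (4.53% of all probe sets were), and the difference of 10 members turned below 0, HSA32, AT1G60750, AT2G30540 and AT1G67300 among them.

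**Figure D2:**
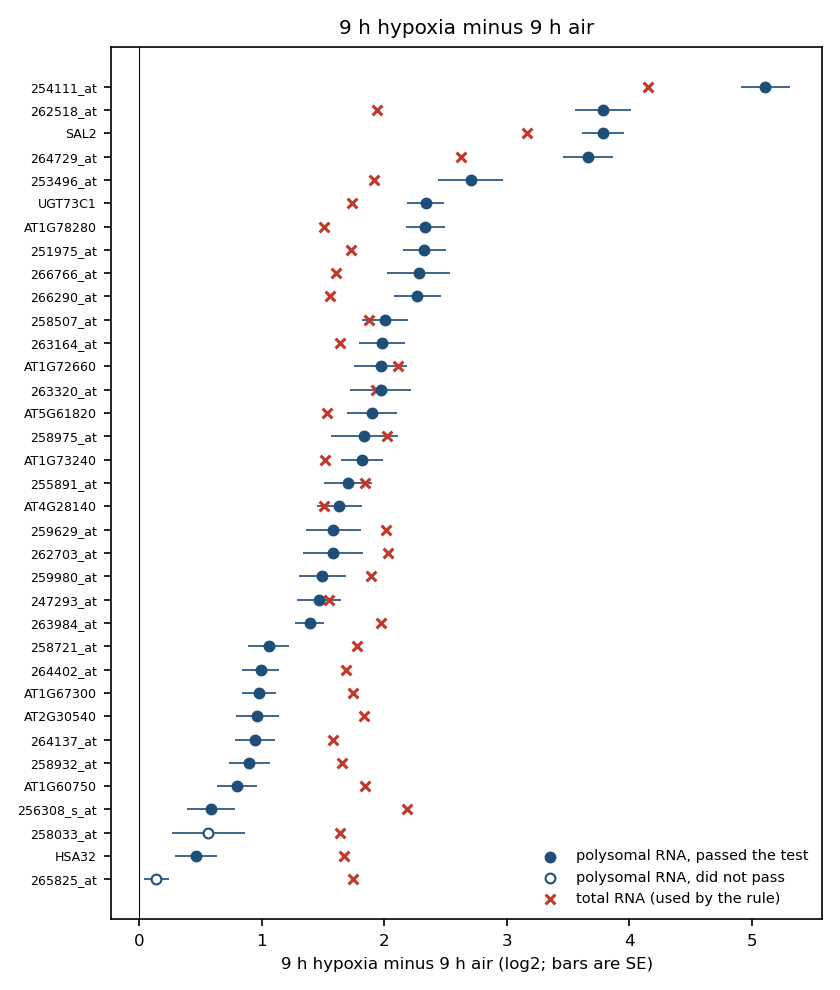
Rows are the 35 members and the x axis is 9 h hypoxia minus 9 h air (log2). Circles are mean-centred polysomal differences with their standard errors, filled where they passed the test, and crosses are the total RNA differences that chose the members; polysomal values run from 0.14 (265825_at) to 5.11 (254111_at) while all crosses lie at 1.51 or above.

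Probe set 254111_at had the largest 9 h difference of the 35 in both pools. Its total RNA signal was 4.03, 4.05 and 4.08 in 9 h air and 8.092, 7.999 and 8.525 after 9 h of hypoxia. Its mean-centred polysomal signal was -1.56, -1.22 and -1.71 in 9 h air and 3.47, 3.31 and 4.05 after 9 h of hypoxia. In polysomal RNA all hypoxia arrays lay far above all air arrays, and the difference was 5.11 ± 0.20 (SE, limma adjusted p = 1.21e-16). This probe set, like the others given by ID below, is singled out after its values were seen.

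SAL2 (AT5G64000), a relative of the bisphosphate nucleotidase SAL1, which degrades a by-product of sulfate metabolism, came next among members with a gene. Its total RNA signal was 4.32, 4.25 and 4.25 in 9 h air and 7.48, 7.53 and 7.29 after 9 h of hypoxia. Its mean-centred polysomal signal was -1.56, -1.14 and -1.46 in 9 h air and 2.29, 2.51 and 2.40 after hypoxia. The polysomal groups did not overlap, and their difference was 3.79 ± 0.17 (SE, limma adjusted p = 2.71e-15). Probe set 262518_at had the same polysomal difference, 3.79 ± 0.23, from a total RNA difference of 1.94. For 264729_at the polysomal difference was 3.66 ± 0.21 and the total RNA difference 2.63.

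At the other end, 265825_at rose over 9 h air in total RNA after 9 h of hypoxia, with little change in mean-centred polysomal RNA. Its polysomal signal lay well above the array mean in both conditions. Its total RNA signal was 7.91, 8.25 and 8.07 in 9 h air and 9.82, 9.83 and 9.82 after hypoxia. Its mean-centred polysomal signal was 3.54, 3.74 and 3.64 in air and 3.63, 3.95 and 3.75 after hypoxia, and these arrays overlapped. The difference of 0.14 ± 0.10 (SE) did not pass the test (limma adjusted p = 0.278). On deposited values the polysomal difference was -0.88 at 9 h and 2.16 on recovery. After 1 h of recovery the polysomal values were 5.08, 5.08 and 5.08, which is 1.31 ± 0.10 above 9 h hypoxia (limma adjusted p = 2.04e-10), while the total RNA difference was 0.02.

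HSA32 (AT4G21320), a heat-induced protein that seedlings need to keep acquired heat tolerance over a long recovery, had a low polysomal difference at 9 h and a higher one after recovery. Its total RNA signal was 5.49, 5.71 and 5.55 in 9 h air, 6.92, 7.31 and 7.52 after hypoxia, and 7.81, 8.01 and 8.01 after recovery. Its mean-centred polysomal signal was 0.22, 0.79 and 0.45 in air, 0.72, 1.10 and 1.04 after hypoxia, and 2.10, 1.96 and 1.92 after recovery. Polysomal arrays of air and hypoxia overlapped, and the difference of 0.46 ± 0.17 (SE; limma adjusted p = 0.0244) lost its call in 6 of 9 fits with arrays left out (adjusted p 0.00612 to 0.154). Recovery exceeded 9 h hypoxia by 1.04 ± 0.17 (SE; limma adjusted p = 1.43e-05) with no overlap.

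The second member that did not pass at 9 h was 258033_at, with a polysomal difference of 0.57 ± 0.30 (SE; limma adjusted p = 0.121), which became 0.0169 with the replicate number as a block. For 256308_s_at the polysomal difference was 0.59 against 2.19 in total RNA, and its call was lost in 4 of 9 fits with arrays left out. Across the 35 members, the polysomal minus total difference at 9 h had a median of -0.14 and ran from -1.61 to 1.85. It was at most -0.5 for 12 members, at least 0.5 for 10 and between these for 13. Total and polysomal 9 h differences correlated at r = 0.674 and rho = 0.21 over 35 members, and at r = 0.476 and rho = 0.139 without 254111_at; members share arrays, and the total values were selected, so this is a description.

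The rule set no limit on polysomal RNA at 2 h. The members' counts there are given beside the shares of all probe sets and were not tested against them. Of 35, 10 were called higher (15.7% of all probe sets were) and 3 lower (17.6%), and 18 lay between -0.3 and 0.3, where 60.9% of all probe sets lay. The median was 0.23, from -0.58 to 1.03, against -0.02 over all probe sets. Fits with arrays left out called 4 to 10 higher, the 4 without replicate 3, and 1 to 2 lower, and the deposited values called 0 higher (2.74% of all probe sets were) and 24 lower (88.1%), so the direction at 2 h depends on the scaling.

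The members called higher at 2 h with a gene were AT1G78280, at 0.91 ± 0.16 (SE; limma adjusted p = 5.28e-05), AT5G61820, at 0.85 ± 0.20 (adjusted p = 0.00173), and AT1G73240, at 0.70 ± 0.17 (adjusted p = 0.00198). AT5G61820 encodes a relative of a stress-induced nodulin, and its 2 h polysomal values were 3.85, 3.45 and 3.41 in air and 4.61, 3.98 and 4.67 in hypoxia, without overlap. The highest 2 h difference was that of 262518_at, 1.03 ± 0.23 (SE; limma adjusted p = 0.00079). The 3 called lower were 265825_at at -0.58, AT2G30540 at -0.46 and 263984_at at -0.35; AT2G30540 had overlapping arrays and lost its call in 7 of 9 fits with arrays left out.

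**Figure D3:**
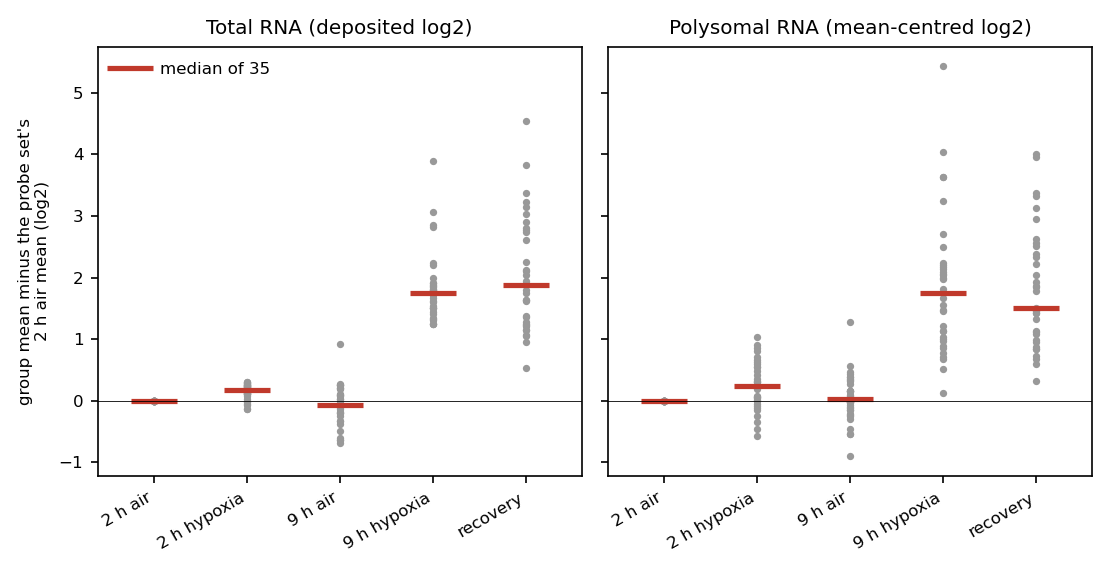
Each point is 1 of the 35 members, as its group mean minus its own 2 h air mean (log2), for total RNA on the left and mean-centred polysomal RNA on the right; red bars are medians. In total RNA the 2 h hypoxia points are narrow because the rule set them, and in polysomal RNA the 2 h hypoxia minus air differences spread from -0.58 to 1.03.

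Between the 2 hypoxia times, 33 of 35 were higher in polysomal RNA at 9 h than at 2 h (16.0% of all probe sets were), with a median difference of 1.28 and a range of 0.47 to 4.88, and no member's arrays overlapped, where 22.7% of all probe sets had all 9 h arrays above all 2 h arrays. The 2 not called were 256308_s_at at 0.47 and 258033_at at 0.65; with the replicate number as a block all 35 were called. The same 3 conditions as the rule, applied to polysomal means (9 h at least 1.5, 2 h within 0.3, 9 h over 2 h hypoxia at least 1), were met by 9 of the 35, where 0.215% of all probe sets met them; this count was added after the data were seen. The 9 were AT1G72660, UGT73C1, AT4G28140, 258975_at, 263320_at, 253496_at, 258507_at, 263164_at and 266766_at. On deposited values none of these 9 met them; 3 other members did, 254111_at, 264729_at and 262518_at (0.154% of all probe sets).

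Between the 2 times of night in air, the share of members called was near that of all probe sets. In polysomal RNA, 9 h air against 2 h air called 1 member higher (4.0% of all probe sets were) and 2 lower (4.26%), or 4 lower with the replicate block. The one higher was 263320_at, at 1.27, and those lower were 262703_at at -0.91 and 263984_at at -0.54. In total RNA the same difference had a median of -0.07 and a range of -0.69 to 0.93, with 4 members at -0.5 or below and 1 at 0.5 or above.

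After 1 h of recovery, most members were above 9 h air in polysomal RNA, without a uniform change from 9 h hypoxia. In total RNA the conditions of the rule together place every member above 9 h air after recovery. That difference ran from 0.608 to 3.623 and is no separate result. In total RNA, recovery minus 9 h hypoxia, which the rule bounded below at -1, had a median of 0.04 and ran from -0.90 to 2.03; it was at least 0.5 for 10 members, at most -0.5 for 6 and between for 19. In polysomal RNA, 9 of 35 were called higher than at 9 h hypoxia (18.9% of all probe sets were) and 8 lower (18.1%), with a median of -0.10 and a range of -2.05 to 1.39. The deposited values called 26 higher (87.7% of all probe sets were) and 2 lower (2.5%). Against 9 h air, 33 of 35 were still higher in polysomal RNA (17.1% of all probe sets were), with a median of 1.63; the 2 others were AT1G60750 at 0.35 and 258033_at at 0.30.

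**Figure D4:**
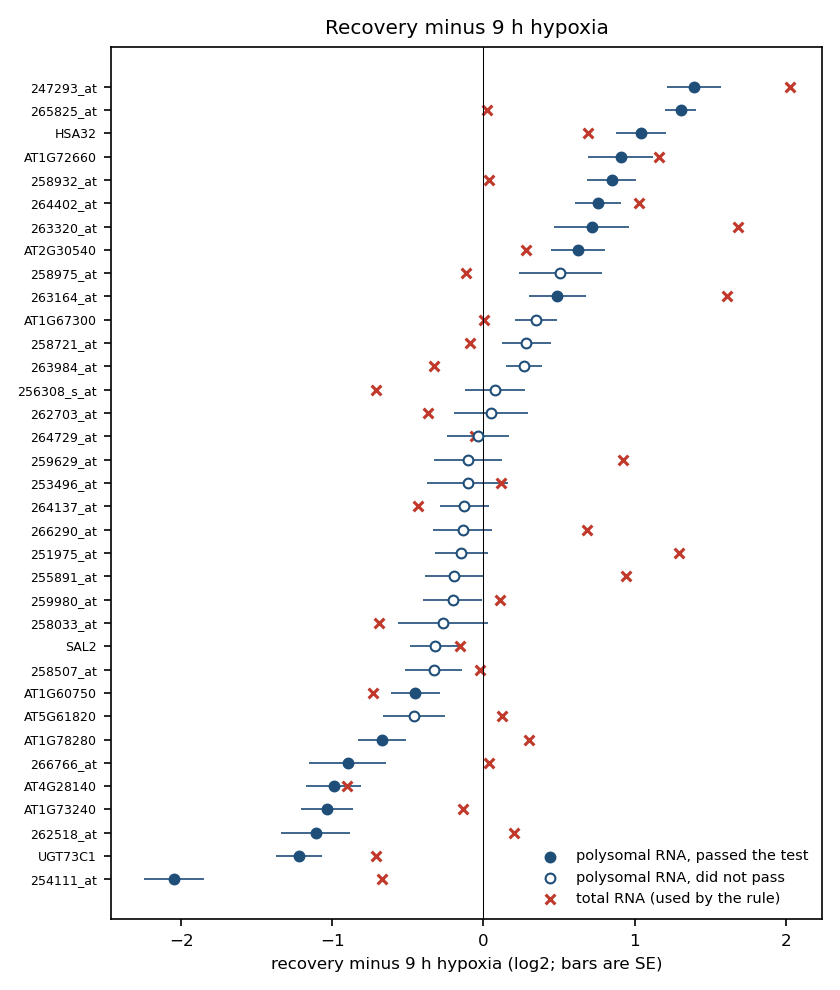
Rows are the 35 members and the x axis is recovery minus 9 h hypoxia (log2). Circles are mean-centred polysomal differences with standard errors, filled where they passed the test, and crosses are total RNA differences; polysomal values run from -2.05 (254111_at) to 1.39 (247293_at).

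The fall in polysomal RNA on recovery was largest for 254111_at, whose recovery and 9 h differences share the 9 h hypoxia arrays. For it the mean-centred polysomal signal fell to 1.19, 1.42 and 2.08 after recovery, a difference of -2.05 ± 0.20 (SE; limma adjusted p = 6.6e-09), while the total RNA difference was -0.67. UGT73C1 (AT2G36750), a glucosyltransferase that can conjugate cytokinins and foreign compounds, had polysomal values of -2.36, -2.01 and -2.16 in 9 h air, 0.11, 0.19 and 0.20 after 9 h of hypoxia and -0.68, -1.37 and -1.12 after recovery. No 2 of these 3 groups overlapped. Its 9 h difference was 2.34 ± 0.15 and its recovery difference -1.22 ± 0.15 (SE; limma adjusted p = 2.28e-12 and 3.4e-07).

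Others with a gene that fell were AT4G28140, AT1G73240, AT1G78280 and AT1G60750. AT4G28140, an AP2/ERF-family transcription factor gene, had polysomal values of -1.18, -1.30 and -1.59 in 9 h air, 0.41, 0.26 and 0.16 after 9 h hypoxia and -0.51, -0.82 and -0.81 after recovery. Its polysomal difference was 1.63 ± 0.18 at 9 h and -0.99 ± 0.18 on recovery (SE; limma adjusted p = 3.25e-08 and 8.45e-05). AT1G73240 fell by 1.04 and AT1G78280 by 0.67. AT1G60750, which encodes an aldo-keto reductase-type oxidoreductase, fell by 0.45, a call lost in 6 of 9 fits with arrays left out. On deposited values the calls of these 4 genes were lost, with recovery differences of -0.14 for AT4G28140, -0.18 for AT1G73240, 0.18 for AT1G78280 and 0.40 for AT1G60750; the 2 members still called lower were 254111_at and UGT73C1 (-0.37). The total RNA signal of AT1G60750, on which the rule chose it, was 3.67, 3.68 and 3.65 in 9 h air and 5.81, 5.15 and 5.57 after hypoxia.

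Among members that rose on recovery, AT1G72660, which encodes a GTP-binding protein of the DRG family, had total RNA values of 4.09, 3.96 and 4.14 in 9 h air, 5.81, 6.07 and 6.65 after 9 h hypoxia and 7.59, 7.12 and 7.30 after recovery. Its polysomal values were -1.49, -1.36 and -1.57, then -0.13, 0.66 and 0.96, then 1.20, 1.29 and 1.73. Each polysomal step was without overlap. The polysomal differences were 1.97 ± 0.22 at 9 h and 0.91 ± 0.22 on recovery (SE, limma adjusted p = 2.13e-08 and 0.00132). At 2 h its polysomal difference was 0.005, and on deposited values it was -0.82, with 0.96 at 9 h.

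AT2G30540, a glutaredoxin gene, rose by 0.62 ± 0.18 on recovery (SE; limma adjusted p = 0.00659), and its 9 h polysomal difference was 0.96 ± 0.18. Probe set 247293_at had the highest recovery difference in both pools, 2.03 in total RNA and 1.39 ± 0.18 in polysomal RNA (SE; limma adjusted p = 5.61e-07). AT1G67300, a sugar-transporter-family gene, had a 9 h polysomal difference of 0.98 ± 0.14 and total RNA values of 5.89, 6.17 and 6.16 in air and 8.08, 7.72 and 7.65 after hypoxia; its recovery difference in polysomal RNA was 0.35 and did not pass, but was called with the replicate block (limma adjusted p = 0.0426). The block also called AT5G61820 lower on recovery, at -0.46 (limma adjusted p = 0.0133), and 258975_at higher, at 0.51 (adjusted p = 0.0422).

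**Figure D5:**
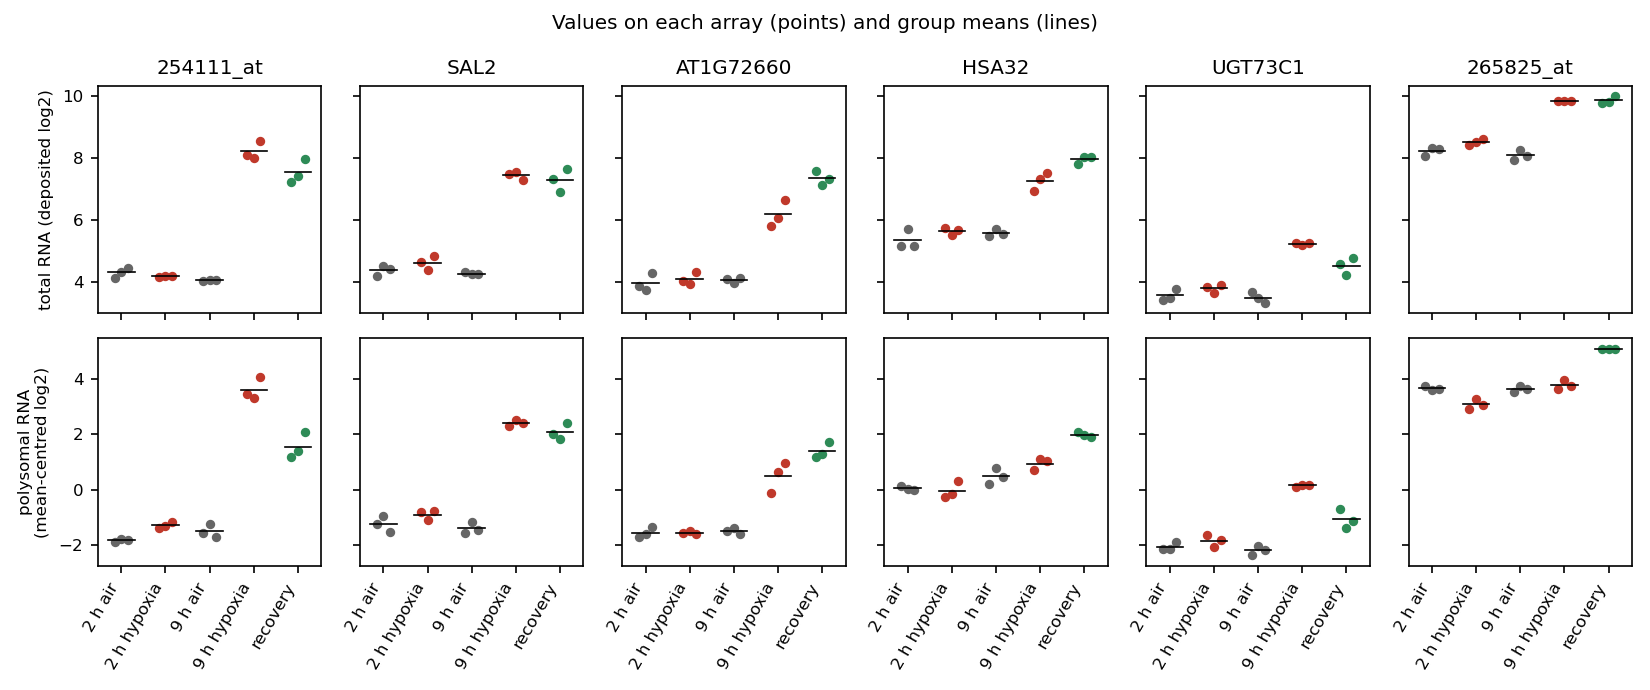
Points are single arrays and lines are group means for 6 members across the 5 conditions, total RNA above (deposited log2) and mean-centred polysomal RNA below (grey, air; red, hypoxia; green, recovery). 254111_at, SAL2 and UGT73C1 are higher after 9 h of hypoxia than in 9 h air in both pools. For 265825_at this holds in total RNA, while its polysomal arrays of these groups overlap. Its polysomal values are highest after recovery.

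Only the 11 members with a gene could match a gene list, and few genes of the lists are named in the probe table. None of the 11 stood in the lists with measured genes: small heat shock proteins (8 of 15 measured), other heat-stress chaperones (5 of 18), the unfolded protein response (8 of 26), autophagy (15 of 28), carbon starvation (8 of 30), mitochondrial dysfunction (5 of 24), glutathione transferases and oxidative stress (10 of 39), abscisic acid (5 of 33), ethylene (1 of 15) and the core hypoxia response (16 of 36). A list of senescence and NAC factor genes had 5 of 24 measured, WRKY6, WRKY22, WRKY53, SAG29 and SAG101, and no NAC gene among them. HSA32, though induced by heat, was in no list. Of the 8 small heat shock protein genes measured, 7 had a 9 h total RNA difference of at least 1.5, and all 7 were above 0.3 already at 2 h. So were 603 of all 669 probe sets that met this 9 h threshold. In polysomal RNA 7 of the 8 genes were called higher at 9 h (22.6% of all probe sets were). At 2 h, 7 were called higher (15.7%) and 1 lower (17.6%). All 16 measured core hypoxia genes were likewise at 1.5 or more at 9 h and above 0.3 at 2 h. All 16 were called higher in polysomal RNA at both times, beside the same shares of all probe sets. The counts of the lists were not tested against these shares. The lists for heat shock factors and jasmonate had no gene named in the probe table.

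For comparison, 224 probe sets had a total RNA difference of at least 1.5 at both times. Their polysomal values were called higher for 220 of 224 at 9 h, where 22.6% of all probe sets were. At 2 h this held for 222 of 224 (15.7% of all probe sets). Between the 2 hypoxia times, 106 of 224 were higher at 9 h (16.0% of all probe sets). On recovery 130 of 224 were lower and 13 higher in polysomal RNA, against 8 and 9 of the 35 late probe sets. Of all probe sets, 18.1% were lower and 18.9% higher. The difference between the 2 sets was not tested. These counts are on mean-centred values, and the recovery calls of the late probe sets changed on deposited values. Counts of the 224 on deposited values are not given here. The rule's conditions on recovery and on 9 h over 2 h hypoxia were applied only to the late probe sets.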

How the data were processed

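The deposited values of the 30 Affymetrix arrays are log2 signals. The submitters' processing notes name RMA as the authors' tool, while its version and the set of arrays it was run on are not stated in those notes. The molecule and 3 independent replicate experiments are as the labels' protocols give them. The 64 control probe sets were left out. The members, lists and tests were chosen with earlier results of these data known. Names come from the probe annotation and the RefSeq gene table of TAIR10.1; no sequence was used.

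The rule used every total RNA group, so total RNA is described without a test. For polysomal RNA each array's mean over 22746 probe sets was subtracted, and limma 3.58.1 (R 4.3.3) fitted 1 mean for each of 10 groups on 30 arrays (20 residual degrees of freedom), with moderated tests, Benjamini-Hochberg adjustment over 22746 probe sets and a threshold of 0.05. The script was tested on simulated data. The number of arrays limits the precision. By rule, named genes are, among members with 1 gene, the 10 highest at 9 h in total RNA and the 5 highest and lowest in polysomal RNA at 9 h and on recovery, which takes in all 11, and the 3 probe sets on each side of the threshold of 1.5; other probe sets were named after their values were seen.

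Replicate numbers come from the labels. Same-numbered deviations correlated at 0.106 to 0.18 in the 9 h comparison, 0.157 to 0.286 between hypoxia times, 0.237 to 0.269 on recovery and 0.111 to 0.302 between air groups, but at 0.016 to 0.176 at 2 h and -0.061 to 0.172 for recovery against air. Alternatives were other scalings, a filter on dim probe sets, fewer arrays in the fit, the replicate block and leaving arrays out.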

Additional observations from a re-analysis of the deposited data

Results flagged for a closer look

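Probe set 263984_at moved in opposite directions at the 2 times in polysomal RNA. Its mean-centred arrays in 2 h hypoxia (0.54, 0.22 and 0.40) all lay below those in 2 h air (0.69, 0.76 and 0.76), and its arrays after 9 h of hypoxia (1.68, 1.65 and 1.44) all lay above those in 9 h air (0.09, 0.35 and 0.14). The 9 h difference minus the 2 h difference was 1.74, and this difference was not tested. The 2 h call was lost in 6 of 9 fits with arrays left out, and with each array's median subtracted in place of its mean. Groups of 3 arrays are too small for a check of single outlying arrays.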

How the results depend on the processing

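The calls of members higher in polysomal RNA at 9 h, at 9 h over 2 h hypoxia and on recovery over 9 h air stayed within 1.5 times of their main counts under every alternative run (24 to 34, 30 to 35 and 31 to 34). The counts at 2 h and on recovery did not. On deposited values, 0 members were higher and 24 lower at 2 h, 26 were higher and 2 lower on recovery, and 3 met the late conditions; by construction these values keep the lower means of the hypoxic polysomal arrays. Subtracting medians gave 1 lower at 2 h. Without the dimmest 40% of probe sets, 5 were lower on recovery and 2 higher between air groups, of fewer members tested. Polysomal arrays alone gave 1 lower between air groups and the replicate block gave 4. The block also made calls of 258033_at (9 h, and 9 h over 2 h hypoxia), 256308_s_at (9 h over 2 h hypoxia), 258975_at, AT1G67300 and AT5G61820 (recovery), and 259980_at and 258507_at (air); it ended no call. Leaving arrays out gave 4 to 10 higher and 1 to 2 lower at 2 h, and 1 to 2 higher and 0 to 2 lower between air groups.

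The rule chose 19 probe sets with a 2 h window of 0.2 and 55 with 0.4, 58 with a 9 h threshold of 1.3 and 22 with 1.7, and 26 to 56 without 1 replicate number. Median subtraction chose 45, sharing 25 of the 35, and it moved the median 9 h difference of all probe sets by 0.16.

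Deposited values turned the sign of the polysomal difference at 9 h for 10 members (256308_s_at -0.43, AT1G60750 -0.21, AT2G30540 -0.051, 265825_at -0.88, AT1G67300 -0.039, 264402_at -0.023, HSA32 -0.55, 258932_at -0.12, 258033_at -0.45, 264137_at -0.072); at 2 h for 23 members (254111_at -0.28, SAL2 -0.48, 264729_at -0.29, 256308_s_at -0.78, AT1G72660 -0.82, 259629_at -0.023, 263320_at -0.57, 259980_at -0.75, 258507_at -0.60, 255891_at -0.23, 258721_at -0.20, AT1G67300 -0.53, UGT73C1 -0.60, 251975_at -0.16, 264402_at -0.64, 258932_at -0.77, 258033_at -0.35, 263164_at -0.53, 266766_at -0.76, 266290_at -0.42, 247293_at -0.50, AT1G73240 -0.12, AT4G28140 -0.61); on recovery for 14 members (SAL2 0.54, 264729_at 0.82, 259629_at 0.75, 253496_at 0.75, 259980_at 0.65, 258507_at 0.52, 255891_at 0.66, AT1G60750 0.40, 251975_at 0.71, 258033_at 0.59, 264137_at 0.73, 266290_at 0.71, AT5G61820 0.39, AT1G78280 0.18). For 253496_at at 2 h median subtraction gave 0.026 and quantile normalization 0.008, and for 262703_at on recovery median subtraction gave -0.008. Leaving arrays out spanned 0 at 2 h 256308_s_at -0.097 to 0.18, AT1G72660 -0.078 to 0.13, 262703_at -0.32 to 0.022, 258975_at -0.42 to 0.10, 263320_at -0.054 to 0.49, 253496_at -0.080 to 0.043, HSA32 -0.29 to 0.065, 258932_at -0.002 to 0.11, 266766_at -0.034 to 0.19, and on recovery 264729_at -0.33 to 0.21, 256308_s_at -0.047 to 0.22, 262703_at -0.094 to 0.27, 259629_at -0.27 to 0.18, 253496_at -0.35 to 0.069, 264137_at -0.34 to 0.12. The cause of the other changes was not tested. The motif search of promoters was not run because no sequence was used here.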
